A study of Mus musculus with 4 samples.

Results

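The genes described here are the synaptotagmins, the SNARE proteins and the other genes of regulated exocytosis, in a mouse beta cell line depleted of NF45. They were chosen by gene symbol among probe sets that carry exactly 1 symbol: Syt, Sytl, Stx, Stxbp, Vamp, Unc13, Rims and Cplx genes, Snap23, Snap25 and Snap29, the Rab3 genes a to d, and Rab27a and Rab27b. The rule found 70 genes on 74 probe sets, of 22180 genes with 1 symbol in the whole table, and the brightest probe set stood for each gene. They are 17 synaptotagmins, 5 synaptotagmin-like genes, 14 syntaxins, 3 SNAP genes, 7 VAMP genes, 6 syntaxin-binding genes, 12 Unc13, Rims and complexin genes, and 6 Rab3 and Rab27 genes.

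Beta-TC-6 cells gave 4 samples of total RNA, each hybridised to its own Mouse Gene 2.1 ST array from Affymetrix. Of these, 2 samples (siNF45) were transfected by a lipid reagent with a mixture of RNAi duplexes directed at NF45, the double-stranded RNA-binding protein encoded by Ilf2, and 2 (siNTC) with a negative control siRNA. Beta-TC-6 is an insulin-producing line from a tumour of mice that carry a viral large T antigen under the insulin promoter, and both groups share that background, the same medium and the transfection. Whether the cells of a group were transfected in separate dishes is not in the labels. The p-values therefore reflect the spread of these 4 samples alone, which may be technical.

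In beta cells and neurons, cargo leaves the cell when vesicles fuse with the plasma membrane. Fusion is driven by SNARE proteins, with a VAMP on the vesicle that zips together with a syntaxin and a SNAP protein on the target membrane. Rab3 and Rab27 GTPases and their effectors bring vesicles to the membrane, Unc13 and syntaxin-binding proteins make the SNAREs ready, complexins bind the assembled complex, and synaptotagmins serve as calcium sensors. In beta cells this machinery releases insulin granules when calcium enters after glucose has closed the KATP channels.

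The promoters of 3 leading members are shown, for Syt10 and Sytl4, which had the smallest p-values among members higher in siNF45, and for Rab3a, which had the smallest among those lower. The sequences are from RefSeq (build GRCm38.p6), each the 250 bases before an annotated start, 5′ to 3′ on the gene's strand. Syt10 lies on the minus strand (chr15:89841861-89842110), Sytl4 on the minus strand (chrX:133981813-133982062) and Rab3a on the plus strand (chr8:70754453-70754702, the first of 2 starts listed). Capitals mark TGACG, the core of the cAMP response element, and GGGCGG, the GC box, on either strand (CGTCA and CCGCCC on the other strand). These 2 motifs do not share letters in the windows printed.
Syt10: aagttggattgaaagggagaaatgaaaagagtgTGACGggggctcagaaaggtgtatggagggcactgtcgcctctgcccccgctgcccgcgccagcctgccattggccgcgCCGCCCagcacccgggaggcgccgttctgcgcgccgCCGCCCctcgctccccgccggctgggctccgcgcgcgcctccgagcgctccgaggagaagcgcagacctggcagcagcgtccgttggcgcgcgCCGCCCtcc
Sytl4: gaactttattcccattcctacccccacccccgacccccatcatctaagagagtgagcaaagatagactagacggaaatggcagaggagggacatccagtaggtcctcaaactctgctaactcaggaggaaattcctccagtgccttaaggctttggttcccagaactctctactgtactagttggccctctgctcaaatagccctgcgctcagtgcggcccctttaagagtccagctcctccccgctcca
Rab3a: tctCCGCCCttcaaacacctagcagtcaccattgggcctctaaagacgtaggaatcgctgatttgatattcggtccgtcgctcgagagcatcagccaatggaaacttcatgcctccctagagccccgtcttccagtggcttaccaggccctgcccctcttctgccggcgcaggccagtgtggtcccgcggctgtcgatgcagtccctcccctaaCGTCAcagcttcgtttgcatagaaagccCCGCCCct
The Syt10 window held 1 TGACG and 3 GC boxes, the Rab3a window held 1 and 2, and the Sytl4 window held neither. Promoters were found for 45 of the 55 tested members. Of these members 31.1% had TGACG and 71.1% had a GC box in any of their windows, against 31.1% and 63.5% of the 9235 tested genes with a promoter in the table. Over all 32851 promoters the shares were 17.8% and 32.7%. These matches describe the letters only.

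Values are the authors' deposited values, taken as log2 from their range, 1 per probe set and array. A gene was tested if its probe set averaged at least 1.645 over the 4 arrays, the median of all probe sets, which left 11742 genes. The target read 3.67 and 3.77 on the siNF45 arrays, against 5.79 and 5.98 on the siNTC arrays. Ilf2 thus fell by 4.48-fold, a log2 difference of -2.17 (SE 0.13, limma adjusted p = 0.020, Benjamini-Hochberg over all tested genes), while an exact two-sided permutation test gave p = 0.333, the smallest that 2 arrays against 2 allow. Arrays of a group differed by a median of 0.15 per tested gene in both groups, and by 0.16 in siNF45 and 0.13 in siNTC over the tested members. The median difference of all tested genes was -0.07. Centring each array on the median of its tested genes moved that median by 0.13, so differences near 0 have no settled direction.

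Of the 70 members, 55 reached the signal filter and 15 did not. No tested member passed limma's adjusted threshold of 0.05, which 10 genes or 0.0852% of all tested genes passed. At an adjusted p under 0.10 there was 1 member, Syt10, against 1.62% of all tested genes. At an unadjusted p under 0.05, 13 of the 55 members differed, 4 higher and 9 lower in siNF45, against 17.2% of all tested genes, of which 4.02% were higher and 13.2% lower. The 4 were Syt10, Sytl4, Cplx2 and Stxbp3, and the 9 were Rab3a, Syt7, Cplx1, Syt13, Unc13a, Vamp4, Syt5, Rab3d and Stxbp6. This split moved with the scaling, to 12 higher and 2 lower (Rab3a and Syt7) after centring the arrays, where 10.7% of all tested genes were higher and 7.4% lower. After quantile normalization 8 members were higher and 10 lower, against 6.44% and 11% of all tested genes. The median member differed by 0, with 27 members above 0, 27 below and Vamp8 at 0. Of the 11742 tested genes, 4434 were above 0 and 7202 below. Differences of 1.5-fold or more were seen in 3 members, against 5.88% of all tested genes. The groups did not overlap in 31 members, against 47.8% of all tested genes. Of these members 14 were higher and 17 lower, against 15.2% and 32.6% of all tested genes. Fewer cells of one kind and less RNA per cell cannot be told apart in these bulk samples.

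**Figure D1:**
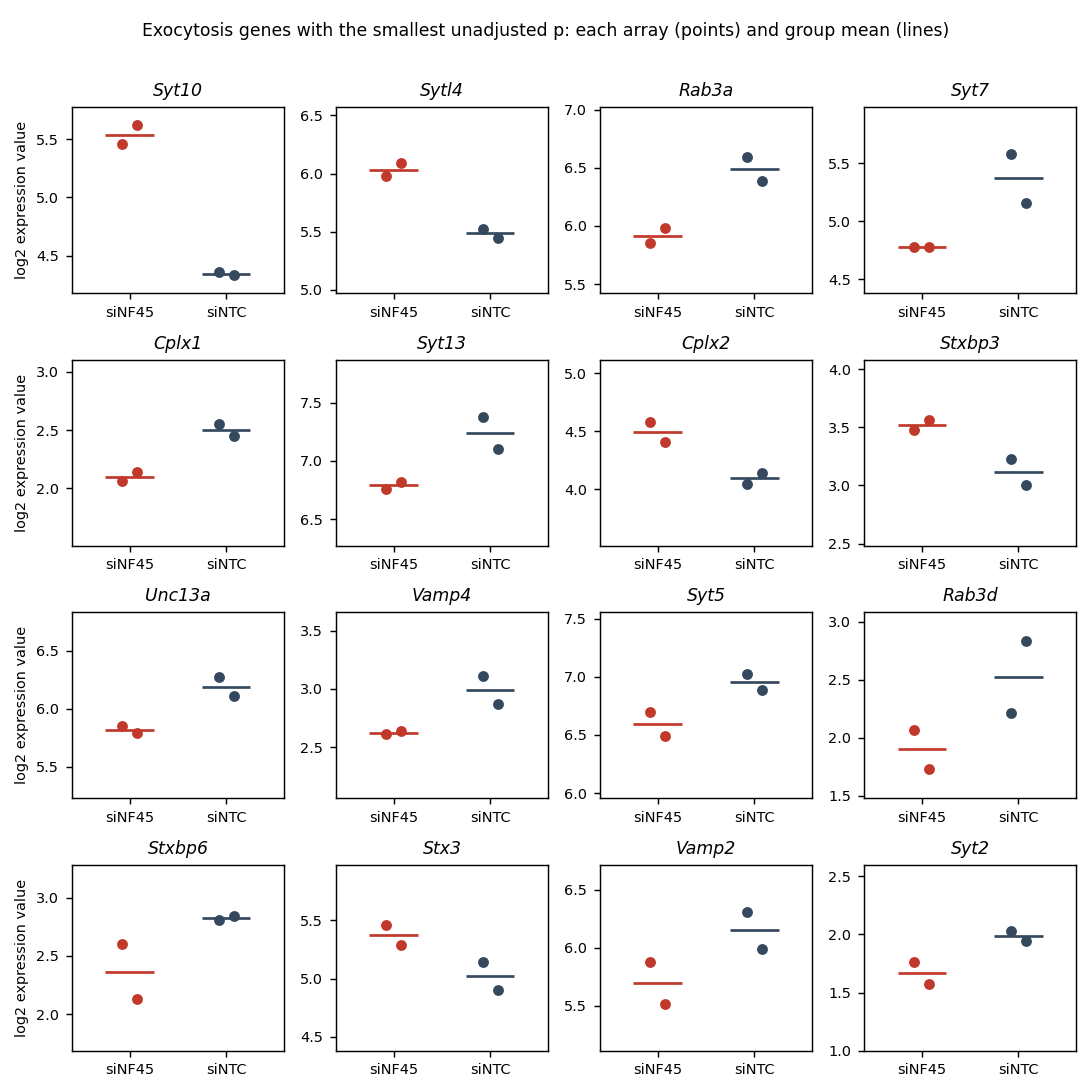
Log2 expression value (vertical axis, 1.6 units in each panel) of the 16 exocytosis genes with the smallest unadjusted p, on the siNF45 arrays (left, red) and the siNTC arrays (right, dark), with a line at each group mean over 2 arrays. The groups do not overlap in any of the 16 panels, which were picked by p, and the gap is widest for Syt10. Of all tested genes 47.8% show no overlap.

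The synaptotagmins, membrane proteins with paired C2 domains, held the largest difference among the members. Syt10, a calcium sensor known in mouse olfactory bulb neurons for the release of the growth factor IGF-1, read 5.46 and 5.62 on the siNF45 arrays, against 4.36 and 4.33 on the siNTC arrays. Both siNF45 arrays lay more than 1 log2 unit above both siNTC arrays. The means were 5.54 ± 0.11 in siNF45 and 4.34 ± 0.02 in siNTC (SD, n = 2 each). The difference of 1.2 was 2.29-fold (SE 0.12, 95% interval 0.89 to 1.5), and Syt10 ranked 15th of the 11742 genes by p, with a limma adjusted p of 0.071. It passed in 4 of 12 alternative fits, with adjusted p of 0.037 at a filter on the 70th percentile, 0.033 after quantile normalization, 0.0097 after centring and 0.013 with a trend in eBayes.

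Several synaptotagmins with known roles in hormone granules were lower in siNF45 at an unadjusted p under 0.05. Syt7, a calcium sensor of insulin granules, read 4.78 and 4.78 on the siNF45 arrays, against 5.58 and 5.16 on the siNTC arrays. Its difference of -0.59 (SE 0.17, limma adjusted p = 0.189) was -0.38 without siNTC replicate 1 and -0.80 without siNTC replicate 2. Syt13, a member that lacks calcium binding and is expressed in endocrine cells, read 6.76 and 6.82 in siNF45, against 7.38 and 7.10 in siNTC, a difference of -0.45 (SE 0.14, limma adjusted p = 0.217). For Syt5, found on dense-core vesicles, the values were 6.70 and 6.49 in siNF45 and 7.02 and 6.89 in siNTC, and the difference was -0.36 (SE 0.14, limma adjusted p = 0.267). In these 3 genes, picked by p, both siNF45 arrays were below both siNTC arrays, as in 32.6% of all tested genes.

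No other synaptotagmin had an unadjusted p under 0.05. The sensors of fast transmitter release, Syt1 and Syt2, differed by -0.36 (SE 0.17) and -0.32 (SE 0.13), both at low values, up to 2.52 on any array, and Syt1 was at -0.20 without siNTC replicate 2 and -0.23 without siNF45 replicate 2. Syt9, which acts in insulin-secreting lines, read 4.73 and 4.81 in siNF45, against 4.64 and 4.51 in siNTC, a difference of 0.20 with a 95% interval from -0.11 to 0.50. Syt4, which is known to modulate vesicle release and is prominent in mature beta cells, read 6.0 on both siNF45 arrays, against 6.08 and 6.12 on the siNTC arrays. Its difference of -0.10 had a 95% interval from -0.39 to 0.19, and turned to 0.03 after centring. Over the 14 tested synaptotagmins, 5 were above 0 and 9 were below it, and the median was -0.10, beside -0.07 for all tested genes. The 6 not yet named, Syt3, Syt8, Syt11, Syt14, Syt15 and Syt17, ranged from -0.10 to 0.15.

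The synaptotagmin-like genes encode Rab27 effectors, which tie the GTPase to the membrane. Sytl4, known as granuphilin, docks insulin granules through Rab27a and syntaxin. It read 5.98 and 6.09 on the siNF45 arrays, against 5.52 and 5.45 on the siNTC arrays, so the groups were 0.46 apart at their nearest. The difference was 0.55 or 1.46-fold (SE 0.12, 95% interval 0.25 to 0.85, limma adjusted p = 0.134). Sytl5, a relative that also binds Rab27, read 6.40 on both siNF45 arrays, against 6.19 and 6.12 on the siNTC arrays, a difference of 0.25 (SE 0.12, limma adjusted p = 0.356). Rab27a itself, the GTPase of insulin granules, read 6.38 and 6.04 in siNF45, against 5.95 and 5.92 in siNTC. Its difference was 0.28 (SE 0.15, limma adjusted p = 0.421), and 0.11 without siNF45 replicate 1.

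Rab3 GTPases sit on secretory vesicles and recruit Rims proteins. Rab3a, the form most studied in neurons and beta cells, read 5.85 and 5.98 on the siNF45 arrays, against 6.59 and 6.39 on the siNTC arrays. Both siNF45 arrays lay below both siNTC arrays, as in 32.6% of all tested genes. The difference was -0.58 or 1.49-fold (SE 0.13, 95% interval -0.91 to -0.24, limma adjusted p = 0.144). Rab3d, known from exocrine granules, read 2.07 and 1.73 in siNF45, against 2.21 and 2.83 in siNTC. Single arrays weighed on its difference of -0.62 (SE 0.24, limma adjusted p = 0.273), which was -0.31 without siNTC replicate 2 and -0.93 without siNTC replicate 1. Rab3d lay at low values, up to 2.83 on any array, and its dimmer probe set differed by -0.08. Rab3b differed by -0.11 and Rab3c by 0.29 (SE 0.17). Rab3c was at 0.09 without siNF45 replicate 1, and its dimmer probe set differed by -0.24.

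**Figure D2:**
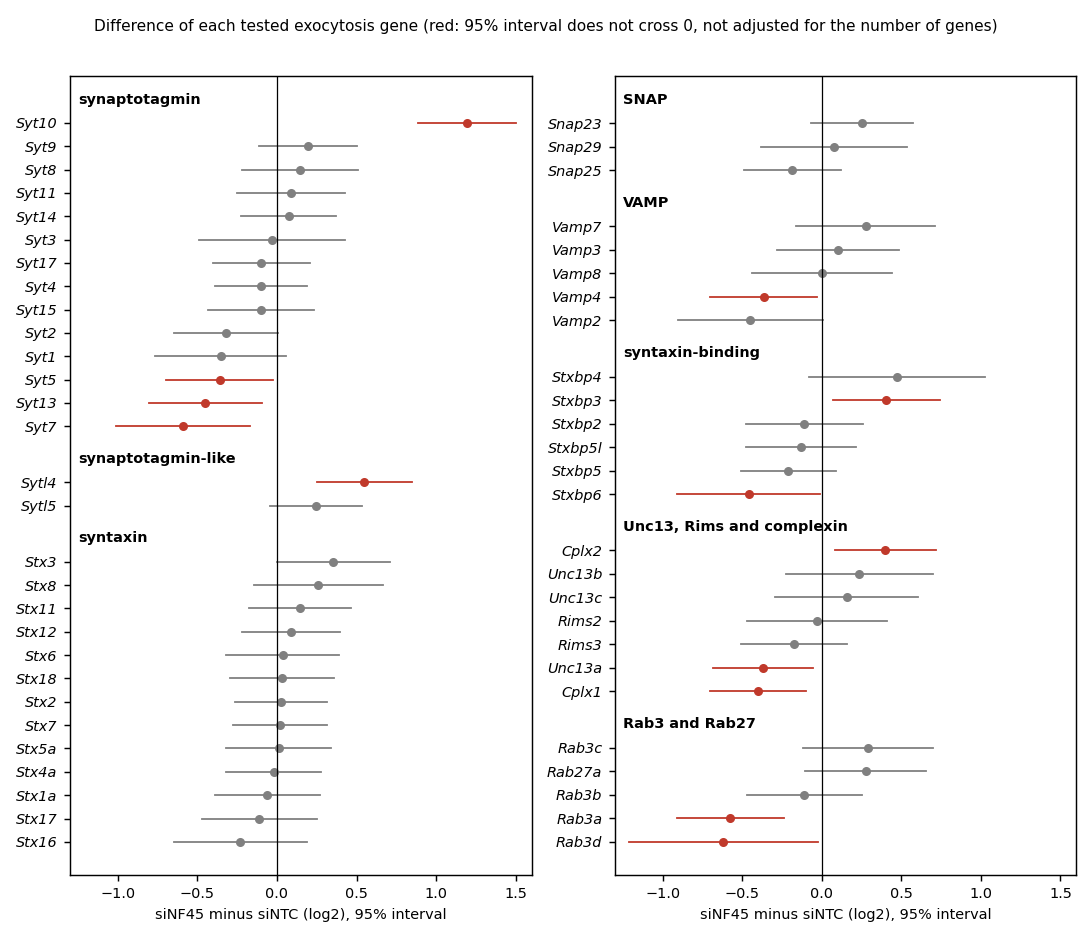
Difference siNF45 minus siNTC (horizontal axis, log2) of each of the 55 tested exocytosis genes by family, with 95% intervals from limma. Red marks the 13 genes whose interval does not cross 0 before adjustment for the number of genes, and Syt10 stands at 1.2, apart from the others.

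The priming proteins and complexins went both ways. Unc13a, or Munc13-1, which opens syntaxin and readies granules for release, read 5.85 and 5.79 on the siNF45 arrays, against 6.27 and 6.11 on the siNTC arrays. Its difference was -0.37 (SE 0.13, limma adjusted p = 0.234), while Unc13b differed by 0.24 (SE 0.19) with overlapping arrays, and by 0.01 without siNF45 replicate 2. Cplx1 read 2.06 and 2.14 in siNF45, against 2.55 and 2.45 in siNTC, a difference of -0.40 (SE 0.12, limma adjusted p = 0.204). Cplx2, its close relative, read 4.58 and 4.41 in siNF45, against 4.05 and 4.14 in siNTC, a difference of 0.40 (SE 0.13, limma adjusted p = 0.219). Both complexins, picked by p, had groups that did not overlap, on opposite sides. Of all tested genes, 15.2% were higher and 32.6% lower without overlap. Cplx1 lay at low values, up to 2.55 on any array, and was at -0.27 after centring. The contrast between these 2 genes was not tested. Rims2, the active-zone scaffold that binds Rab3 in beta cells, read 4.75 and 4.73 in siNF45, against 5.0 and 4.54 in siNTC, a difference of -0.03 (95% interval -0.47 to 0.41).

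Among the syntaxin-binding genes, Stxbp3, the Munc18c partner of syntaxin 4, read 3.48 and 3.56 on the siNF45 arrays, against 3.23 and 3.0 on the siNTC arrays. Its difference was 0.41 (SE 0.14, limma adjusted p = 0.230). Stxbp6, or amisyn, which competes with VAMP for syntaxin, read 2.60 and 2.13 in siNF45, against 2.81 and 2.84 in siNTC. The siNF45 arrays of Stxbp6 differed by 0.47 from each other, and the difference between groups of -0.46 (SE 0.18, limma adjusted p = 0.280) was -0.23 without siNF45 replicate 2. Stxbp5, the tomosyn that holds SNAREs inactive, differed by -0.21 (95% interval -0.51 to 0.09) and its relative Stxbp5l by -0.13 (95% interval -0.48 to 0.22). Stxbp4, a syntaxin 4 binder, differed by 0.48 (SE 0.22), and by 0.16 without siNTC replicate 2.

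Of the 3 SNAP and 5 VAMP genes tested, Vamp4 alone had an unadjusted p under 0.05. Snap25, the membrane SNARE of neurons and beta cells, read 8.60 and 8.59 on the siNF45 arrays, against 8.85 and 8.71 on the siNTC arrays, and its difference of -0.19 had a 95% interval from -0.49 to 0.12 (-0.12 without siNTC replicate 1). Snap23, its widely expressed relative, differed by 0.25 (95% interval -0.07 to 0.57). Vamp2, the granule SNARE, read 5.88 and 5.52 in siNF45, against 6.31 and 5.99 in siNTC. Its difference was -0.45 (SE 0.18, 95% interval -0.90 to 0.0046, limma adjusted p = 0.295), and -0.27 without siNF45 replicate 2 and -0.29 without siNTC replicate 1. Vamp4, a SNARE of the trans-Golgi network, read 2.61 and 2.64 in siNF45, against 3.11 and 2.87 in siNTC, a difference of -0.37 (SE 0.14, limma adjusted p = 0.260). Vamp8, which serves granule fusion in secretory cells, read 3.38 and 3.20 in siNF45, against 3.5 and 3.08 in siNTC, and differed by 0 (95% interval -0.44 to 0.44).

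No syntaxin had an unadjusted p under 0.05, and the 13 tested ones ran from -0.23 for Stx16 to 0.36 for Stx3. Stx1a, the plasma membrane syntaxin of insulin release, read 2.89 and 2.67 on the siNF45 arrays, against 2.87 and 2.81 on the siNTC arrays. Its arrays overlapped, and the difference of -0.06 had a 95% interval from -0.39 to 0.27. Stx4a, the other plasma membrane syntaxin of insulin release, differed by -0.02 (95% interval -0.32 to 0.28). Stx3, known for fusion among granules, read 5.46 and 5.29 in siNF45, against 5.14 and 4.90 in siNTC, a difference of 0.36 (SE 0.14), or 0.24 without siNTC replicate 2. Its limma unadjusted p of 0.051 was the nearest above the threshold, and that of Stxbp6, 0.046, the nearest below. The groups did not overlap in 3 of the 13 syntaxins, all higher in siNF45, against 15.2% of all tested genes. Stx8, a late endosomal SNARE, differed by 0.26 (SE 0.16), and the lysosomal Vamp7 by 0.28 (SE 0.18). Without siNF45 replicate 1 these values were 0.07 and 0.08.

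The 15 members under the signal filter were Cplx3, Cplx4, Rab27b, Rims1, Rims4, Stx19, Syt6, Syt12, Syt16, Sytl1, Sytl2, Sytl3, Unc13d, Vamp1 and Vamp5. Their values lay between 0.84, for Sytl3 on an siNTC array, and 2.09, for Syt12 on an siNF45 array. They were fitted only in the alternative with no filter, where 1 of the 15, Cplx3 at 0.31 (SE 0.12), had an unadjusted limma p under 0.05. Syt4 had 2 further dim probe sets, which differed by -0.11 and 0.38.

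**Figure D3:**
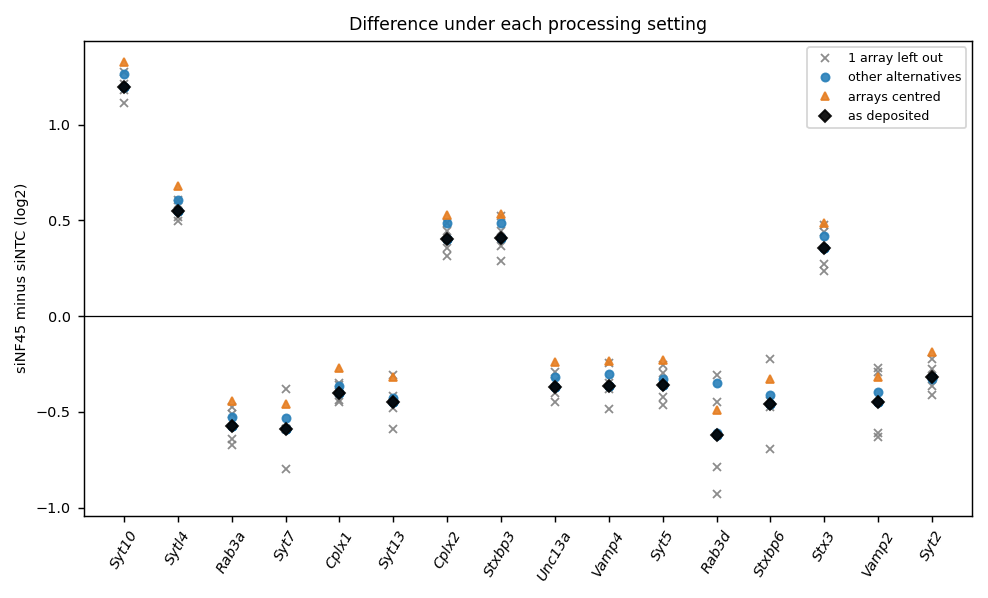
Difference siNF45 minus siNTC (vertical axis, log2) of the 16 exocytosis genes with the smallest unadjusted p, as deposited (black diamonds), with 1 array left out (crosses), with arrays centred (triangles) and under the other alternatives (circles). The sign of each gene is the same in every setting, while Rab3d runs from -0.93 to -0.31. The genes were picked by p and their groups do not overlap, so leaving out 1 array could not turn a sign.

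Of the 13 members with an unadjusted p under 0.05, none turned its sign in any alternative. Of all 55 tested members, 20 did in at least 1. The 13 were picked by p and their groups did not overlap, so leaving out 1 array could not turn a sign. No conclusion is drawn from the contrast with all 55. Nor is one drawn from the counts of settings that follow, which reuse the same 4 arrays for members picked by p. The share of all tested genes with such counts was not computed. Sytl4 and Rab3a passed the adjusted threshold in no setting, with a smallest limma adjusted p of 0.054 and 0.057. Syt10, Sytl4 and Rab3a kept an unadjusted limma p under 0.05 in all 13 settings, the fit as deposited included. Syt7, Cplx2 and Stxbp3 did in 10 of them and Vamp4 in 6, and Stxbp6 did in 6 of the 12 settings in which it was fitted. Of the 14 members under that threshold after centring, 6 were among the 13 of the fit as deposited. Syt13, Unc13a, Syt5, Cplx1, Vamp4, Rab3d and Stxbp6 were no longer under it there.

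Genes that work with these members were taken from 5 lists, drawn up with earlier results of these data known, and none of the list genes passed the adjusted threshold. Vesicle membrane proteins had 17 tested genes with a median of -0.07, 1 higher and 3 lower at an unadjusted p under 0.05. Over all tested genes 4.02% were higher and 13.2% lower by that rule, which is the background for the counts of each list. Sv2b, a transporter-like glycoprotein of synaptic and granule membranes that is known to bind synaptotagmin, read 6.12 and 5.99 on the siNF45 arrays, against 6.87 and 6.82 on the siNTC arrays. The difference of -0.79 was 1.73-fold (SE 0.12, limma adjusted p = 0.085). Both siNF45 arrays of Sv2b, picked by p, were below both siNTC arrays. The same held in 8 of the 17 genes and in 32.6% of all tested genes. Sv2c differed by -0.74 (SE 0.17, limma adjusted p = 0.136), and Scamp3, a carrier membrane protein of the recycling route, by 0.67 (SE 0.15, limma adjusted p = 0.142).

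Rab3 and Rab27 effectors and regulators had 19 tested genes with a median of -0.05, 0 higher and 2 lower at an unadjusted limma p under 0.05. These were Madd, an exchange factor for Rab3, at -0.34 (SE 0.12) and the liprin Ppfia3 at -0.55 (SE 0.20). The third by p was Mlph, which links Rab27a to myosin, at -0.45 (SE 0.23). Ppfia3 and Mlph averaged 1.46 and 1.43 in siNF45, under the filter level of 1.645. They passed the filter only through their siNTC values, so both differences lie near the floor. The 9 exocyst subunits, which tether vesicles, had a median of 0.02 and 1 gene, higher, at an unadjusted limma p under 0.05. This was Exoc6b at 0.37 (SE 0.12), followed by Exoc2 at -0.38 (SE 0.18) and Exoc4 at 0.29 (SE 0.14). The 9 SNARE disassembly and priming factors had a median of 0.08 and no gene under an unadjusted limma p of 0.05, with Cadps2 at -0.27, Napa at 0.27 and Snap47 at 0.19. The 17 other SNAREs and Sec1/Munc18 proteins had a median of 0.01 and 1 gene, higher, at an unadjusted limma p under 0.05, the Golgi SNARE Gosr1 at 0.37 (SE 0.13). It was followed by Sec22a at 0.35 (SE 0.16) and Vps33b at 0.25 (SE 0.12). Single arrays weighed on several of these values: Mlph was at -0.12 without siNTC replicate 1, Exoc2 at -0.15 and Ppfia3 at -0.36 without siNF45 replicate 2. Without siNTC replicate 2, Exoc4 was at 0.17, Napa at 0.09 and Sec22a at 0.22, and Snap47 was at 0.03 without siNF45 replicate 1.

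**Figure D4:**
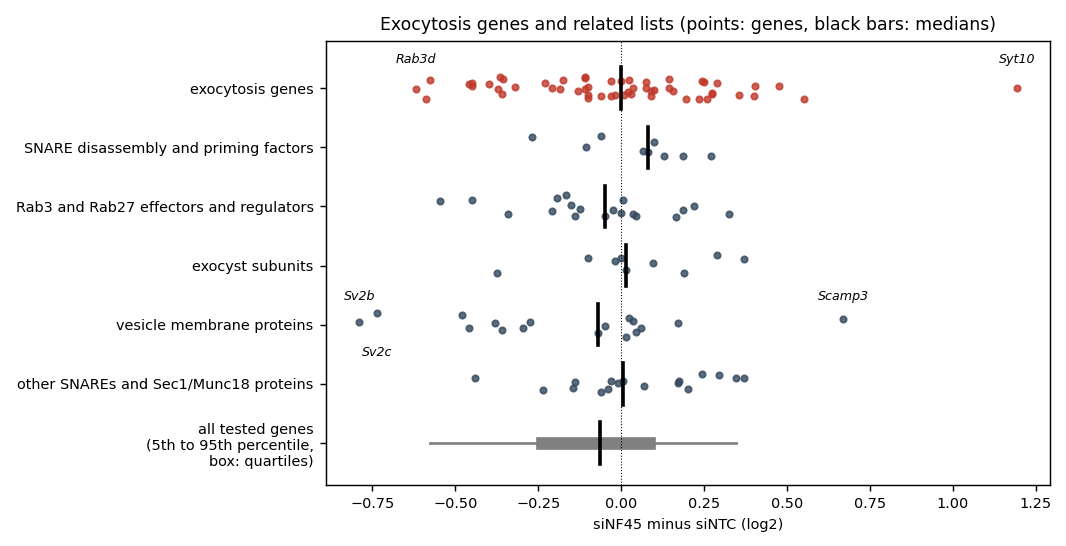
Difference siNF45 minus siNTC (horizontal axis, log2) of the 55 tested exocytosis genes (red) and of the genes of 5 related lists (dark), with medians as black bars and the quartiles of all tested genes as a grey box. List medians lie between -0.07 and 0.08, and Syt10 at 1.2 stands apart from the other points.

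The labelled cell type was checked against its markers. Of 17 beta cell markers 14 had a probe set with 1 symbol and 13 reached the filter, and the 14 had a summed linear level (2 to the power of each log2 value) of 3223 and 3241 on the siNF45 arrays, against 3359 and 3121 on the siNTC arrays. Ucn3 was the one below the filter. Of the 13 tested, 4 were above 0 and 9 below, and 2 were lower at an unadjusted limma p under 0.05, against 13.2% of all tested genes. These 2 were Kcnj11, the KATP channel pore, at -1.02 (SE 0.23, limma adjusted p = 0.134) and Pcsk1 at -0.435 (SE 0.12, limma adjusted p = 0.180). Ins2 differed by 0.18, or 0.005 without siNTC replicate 2, and Pdx1 by -0.05. Of 7 markers of other islet cells with a probe set 5 reached the filter, and the sum over the 7 was 508 and 472 in siNF45, against 819 and 650 in siNTC, with somatostatin (Sst) at -0.89 (SE 0.16, limma adjusted p = 0.103). Without Sst the sum was 218 and 204 in siNF45, against 235 and 195 in siNTC. Irx1 differed by -0.55, Irx2 by -0.39, Ppy by 0.52 and Gcg by -0.02. Sst, Irx1 and Irx2, 3 of the 5 tested, were lower at an unadjusted limma p under 0.05, against 13.2% of all tested genes. In siNF45, Irx1 averaged 1.39, under the filter level of 1.645, which it passed only through its siNTC values. Of 16 markers of cells outside the endocrine islet (acinar, ductal, vascular, blood and stromal) 4 reached the filter, and the sum over the 16 was 54.0 and 55.3 in siNF45, against 50.6 and 48.6 in siNTC, with Krt7 at 0.67 (SE 0.14), Vim at -0.28, Col1a2 at -0.19 and Cd68 at -0.16. Without Krt7 it was 39.0 and 39.7 in siNF45, against 40.0 and 39.9 in siNTC. Vim and Col1a2 averaged 1.62 and 1.58 in siNF45, also under the filter level. No marker was at 0, and those below the filter, among them Cpa1, Pecam1 and Ptprc, read at most 1.79. The part of these marker differences in the values of the exocytosis genes was not tested.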

How the data were processed

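The authors deposited log2 expression values of 41345 probe sets on each array. These were made with Transcriptome Analysis Console, per the submitters' processing notes. Its version, the summarisation, background correction and log base are not given in these sources. Values ran from 0.12 to 12.21 and were taken as log2, so all folds rest on that base. Array medians were 1.66 and 1.66 for siNF45 and 1.64 and 1.64 for siNTC. Genes were not centred, and columns are named by sample, so direction follows the labels. No detection call was used here, and the number of arrays limits the precision.

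Symbols came from the platform annotation, with 23521 probe sets carrying 1 symbol, 1814 several and 16010 unnamed here. Probe sets with several symbols were left out, and the member rule took no symbol with a pseudogene suffix. No filter on gene type was applied to the other genes. Gene numbers of 23328 of the 23521 were found in a RefSeq table of GRCm38.p6, and 0 symbols needed updating. The filter and the brightest probe set per gene are as given above. The comparison, siNF45 minus siNTC, used lmFit and eBayes of limma 3.58.1 (R 4.3.3) with no covariate and Benjamini-Hochberg adjustment over 11742 genes. It had 2 residual degrees of freedom and 3.69 prior ones. SE is the moderated standard error. The script was tested on simulated data. No list was tested.

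Named were Ilf2, the 24 members with the smallest p, members known in insulin or transmitter release, and the 3 genes with the smallest p of each related list. Members and lists were chosen with earlier results of these data known. Replicate numbers occur in both groups. Deviations of same-numbered arrays from their group means correlated at 0.0062, and the numbers were not taken to pair samples. Alternatives were other filters, quantile normalization, centring, trend and robust eBayes, the replicate block, averaged probe sets, leaving out each array, and other thresholds.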

Additional observations from a re-analysis of the deposited data

How the results depend on the processing

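The count of exocytosis genes past an adjusted p of 0.05 was 0 as deposited and 1, always Syt10, with the 70th percentile filter, quantile normalization, centred arrays and an eBayes trend. It was 1 at an adjusted p under 0.10 and 13 at an unadjusted p under 0.05. Over all tested genes those 4 fits called 87, 62, 172 and 174 genes, and the 2 thresholds 190 and 2022, beside 10 as deposited. Fits without 1 array called 0 to 0 genes, with 1236 to 1670 at an unadjusted limma p under 0.05, and a lone array was assumed to vary like the other group. Ilf2 ran there from -2.26 to -2.07 (limma adjusted p 0.307 to 0.471). With the replicate block 0 genes passed (1909 at an unadjusted limma p under 0.05), and Ilf2 stayed at -2.17 with a limma adjusted p of 0.258. The member median ran from -0.03 to 0.13 over all settings. Signs turned for Syt4 (0.03 centred, 0.058 with probe sets averaged), Stx1a (0.0025 by quantiles, 0.07 centred, -0.17 to 0.05 without 1 array), Stx4a (0.044, 0.11 and -0.08 to 0.04) and Rims2 (0.04, 0.10 and -0.26 to 0.20), and the cause was not tested. Of 378 alternative values of 32 named members, 4 crossed the threshold, all of Syt10, and 11 turned sign, those given above. Vamp8, at 0 as deposited, ran from -0.21 to 0.21 without 1 array, and Stxbp5l came to 0 after centring.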
